A study of Mus musculus with 2 samples.

Results

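The genes described here are 9 of the 32285 genes counted: the 3 chains of complement C1q (C1qa, C1qb and C1qc), C4b, C3, complement factor B (Cfb), the C1 inhibitor Serping1, and the anaphylatoxin receptors C3ar1 and C5ar1. They were chosen by name, and all 9 were found in the files. SO, a mouse ovarian cancer line (p53-/-, Hras, myc), was injected under the skin, and the tumors gave 2 libraries of 3′-end single-cell RNA sequencing (10x Genomics), 1 from pooled tumors of wild-type (WT) mice and 1 from pooled tumors of tight skin (TSK) mice. Both groups were female C57BL/6 mice of 6 to 8 weeks. TSK mice carry a tandem duplication within the fibrillin-1 gene Fbn1, present in every host cell of that group and in none of the WT group, and the injected cancer cells were the same line in both. No cell type was selected after enzymatic dissociation, erythrocyte lysis and removal of dead cells.

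Complement is a protein cascade of innate immunity. C1q binds antibodies, dying cells and other surfaces and starts the classical pathway, in which C4 and C2 form an enzyme that cleaves C3. Factor B forms the C3-cleaving enzyme of the alternative pathway, Serping1 blocks the C1 proteases, and the small fragments C3a and C5a act on cells through C3ar1 and C5ar1. Liver makes most of the complement in blood, while macrophages are the best known source of C1q, and stromal cells of many tissues make C3 and C4.

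Cells with at least 200 genes, at least 500 unique molecular identifiers (UMIs) and at most 10% mitochondrial UMIs were used, and 263 barcodes present in both libraries were left out. This kept 1442 of 2332 WT barcodes and 2961 of 4436 TSK barcodes, with medians of 7658.5 and 7302 UMIs per cell. Each cell was given a lineage from the raw UMIs of 12 marker lists, which left 271 WT and 690 TSK cells unassigned, and 173 cells were assigned on only 3 or 4 marker UMIs. Macrophage or monocyte-like cells (called macrophage-like here) numbered 332 in WT and 428 in TSK, fibroblast-like cells 180 and 312, T or NK cell-like cells 458 and 277, neutrophil-like cells 29 and 204, endothelial cell-like cells 62 and 58, and SO cancer cell-like cells 87 and 950. Depth differed within lineages: the median was 9980 UMIs in WT and 6659.5 in TSK macrophage-like cells, and 21594 and 10959.5 in fibroblast-like cells. Levels are UMIs of a gene per 1000000 UMIs of all genes in the same cells (CPM). With 1 library per genotype there is no replicate error and no test between genotypes. The 95% intervals given cover counting error alone, and genotype, library and dissociation cannot be told apart.

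The 9 genes fell into 3 patterns of origin. Macrophage-like cells held 92.5% of C1qa UMIs, 91.8% of C1qb, 92.0% of C1qc, 92.3% of C3ar1 and 76.4% of C5ar1 UMIs, although they held 11.3% of the UMIs of all genes. Fibroblast-like cells, with 12.9% of all UMIs, held 94.2% of Serping1, 87.1% of C4b and 85.6% of C3 UMIs. Cfb was shared, with 62.1% of its UMIs in fibroblast-like and 33.2% in macrophage-like cells. The fibroblast shares depended on the deepest cells. With the upper limit of 10000 UMIs per cell that the study used, they were 91.0% for Serping1, 66.6% for C4b, 55.0% for C3 and 31.1% for Cfb.

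**Figure D1:**
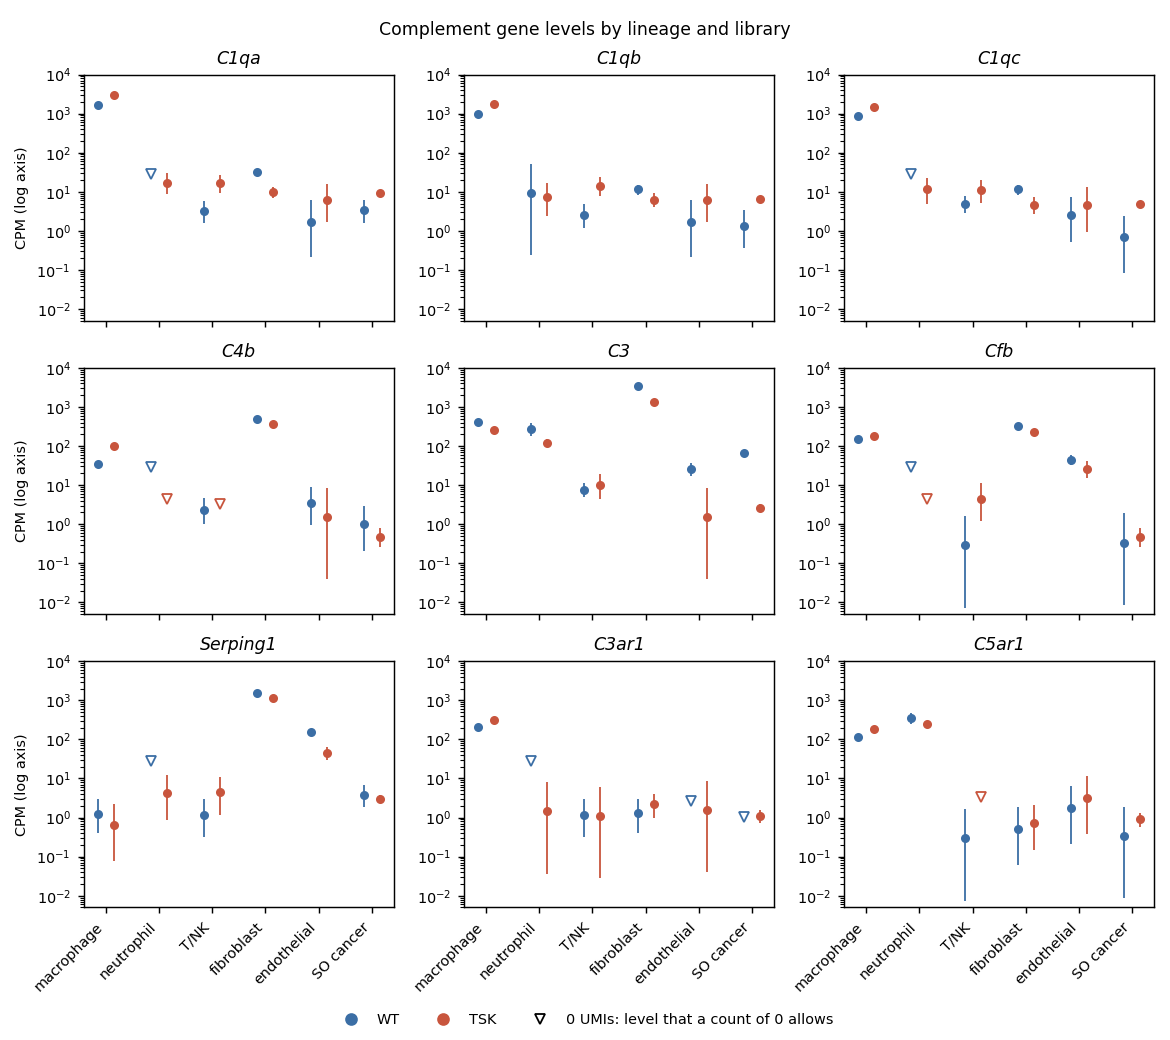
Level of each gene (y axis, CPM, log axis) in 6 lineages (x axis) of the WT and TSK libraries, 1 library each, with 95% Poisson intervals for counting error; open triangles mark the level that 3 UMIs would give where 0 were counted. C1qa, C1qb, C1qc and C3ar1 stand highest in macrophage-like cells in both libraries, and C3, C4b, Cfb and Serping1 in fibroblast-like cells.

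The C1q genes lie side by side on the minus strand of chromosome 4, within 18675 bp (GRCm38, chr4:136880129-136898803). In macrophage-like cells, C1qa stood at 1614.5 CPM in WT and 2975 CPM in TSK. C1qb stood at 997.9 CPM in WT and 1750 CPM in TSK, and C1qc at 877 and 1436 CPM. All 3 chains were therefore higher in the TSK library, by log2 ratios of 0.88 (interval 0.84 to 0.93) for C1qa, 0.81 (0.75 to 0.87) for C1qb and 0.71 (0.65 to 0.78) for C1qc. The median over all genes measured in these cells was 0.21, so that scaling by it left 0.67, 0.60 and 0.50. Within these cells, C1qa made up 46.3% of C1q UMIs in WT and 48.3% in TSK, C1qb 28.6% and 28.4%, and C1qc 25.1% and 23.3%. Macrophage-like cells of the TSK library also carried more UMIs of the SO cancer cell list (57.5 CPM against 8.11) and fewer of the endothelial list (65.4 against 152), and the part of these in the C1q values was not tested.

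More TSK cells had C1q at all. With every cell thinned to 2000 UMIs, UMIs of all 3 chains were found in 108 of 319 WT cells (33.9%) and 221 of 390 TSK cells (56.7%), while 46.4% and 21.8% had none. T or NK cell-like cells, which do not make C1q, had none in 97.1% and 95.3% of cells, which gives the level of free RNA. Before thinning, the median macrophage-like cell had 1.62 C1qa UMIs per 10000 in WT and 22.0 in TSK. The highest 34 of 332 WT cells held 54.3% of C1qa UMIs there, and the highest 43 of 428 TSK cells held 35.0%. The WT distribution was thus the more uneven of the pair.

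Macrophage-like cells were divided by rules set after earlier results of these data were known: resident-like cells (at least 2 of Folr2, Lyve1 and Cd163), then monocyte-like cells (at least 2 of Ly6c2, Plac8, Chil3 and Ccr2), then cells with at least 10 or under 10 Arg1 UMIs per 10000 (Arg1-high and Arg1-low). Monocyte-like cells made up 61.1% of the lineage in WT and 25.5% in TSK, and resident-like cells 3.31% and 14.7%. C1qa was lowest in monocyte-like cells, at 780 CPM in WT and 1149 CPM in TSK (log2 0.56, 0.43 to 0.68). It was 2408 and 2682 CPM in Arg1-low cells (0.16), 2689 and 3268 CPM in Arg1-high cells (0.28) and 4235 and 4647 CPM in resident-like cells (0.13, from 11 WT cells). Each of these 4 ratios was smaller than that of the whole lineage. For C1qc, the ratio was -0.053 (-0.15 to 0.04) in Arg1-high and -0.19 in resident-like cells, against 0.72 in monocyte-like cells. Deeper cells pass such rules more easily, so the division was repeated in cells thinned to 2000 UMIs. Monocyte-like cells were then 42.0% of WT and 17.7% of TSK cells, and the C1qa ratio was 0.87 in monocyte-like, 0.65 in Arg1-high and 0.047 in Arg1-low cells. The C1qc ratio was then 0.92 in monocyte-like, 0.39 (0.15 to 0.64) in Arg1-high and 0.20 (-0.11 to 0.51) in Arg1-low cells. Only 2 WT cells were resident-like after thinning. The smaller C1qa ratio in Arg1-low cells was thus found both ways, while in monocyte-like and Arg1-high cells its size depended on how the cells were divided. For C1qc in Arg1-high cells the sign depended on it too.

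**Figure D2:**
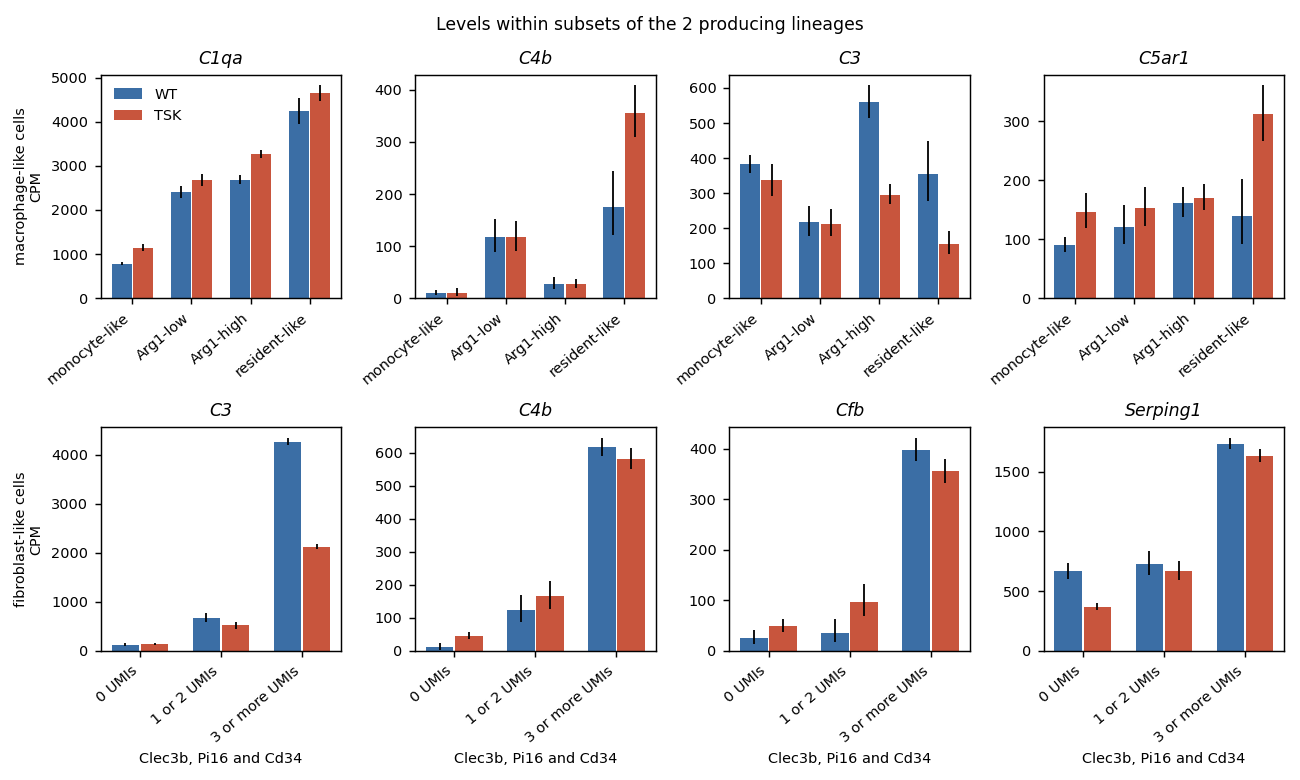
Levels (y axis, CPM, bars from 0) with 95% Poisson intervals for counting error in 4 subsets of macrophage-like cells (top) and in fibroblast-like cells split by their UMIs of Clec3b, Pi16 and Cd34 (bottom), WT and TSK, 1 library each. C1qa is lowest in monocyte-like and highest in resident-like cells in both libraries, macrophage C4b is highest in TSK resident-like cells (356 CPM), and fibroblast C3 is highest in WT cells with 3 or more UMIs of the 3 markers (4266 CPM).

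Promoters of 5 of the 9 genes were matched in RefSeq sequences (GRCm38.p6): C1qb, C1qc, C3, C3ar1 and C5ar1. The 250 bases before the start of C1qb (chr4:136886201-136886450, minus strand), as an example of a gene made by macrophage-like cells, and of C3 (chr17:57228137-57228386, minus strand), as one made mainly by fibroblast-like cells, are given 5′ to 3′. Capitals mark GAGGAA, the core of sites bound by the myeloid factor PU.1, and TGCTGA, part of the site of MAF factors, on either strand (TTCCTC and TCAGCA on the other).
C1qb: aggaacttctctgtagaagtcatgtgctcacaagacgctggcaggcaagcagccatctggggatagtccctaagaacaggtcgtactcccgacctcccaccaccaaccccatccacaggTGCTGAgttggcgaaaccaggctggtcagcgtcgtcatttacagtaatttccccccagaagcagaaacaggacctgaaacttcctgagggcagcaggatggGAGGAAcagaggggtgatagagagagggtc
C3: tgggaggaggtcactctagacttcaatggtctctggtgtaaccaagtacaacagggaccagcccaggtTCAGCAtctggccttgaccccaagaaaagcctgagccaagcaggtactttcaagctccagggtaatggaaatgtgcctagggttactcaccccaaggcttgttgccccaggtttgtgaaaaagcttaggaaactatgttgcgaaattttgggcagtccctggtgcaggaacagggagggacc
GAGGAA was present in 2 of the 5 promoters (C1qb and C1qc) and in 23.3% of 32851 mouse promoters of the same length, and TGCTGA in 4 of 5 and 16.1%. Searched on both strands in the same way, the C/EBP-type motif TTNNGNAA was in 3 of 5 (C1qc, C3 with 3 matches, and C5ar1) and 36.9% of all promoters, and the GAS motif TTCNNNGAA in 0 of 5 and 7.02%. These matches are letters in a window and do not show binding.

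C4b encodes complement C4, the classical pathway component cleaved by C1s (chr17:34728380-34743882, minus strand). It lies 65209 bp from the near-identical C4a, which had 19 UMIs, so that reads shared by the copies make its counts uncertain. In fibroblast-like cells C4b stood at 490.7 CPM in WT and 363.4 CPM in TSK (log2 -0.43, -0.53 to -0.34). That difference was not stable: giving each cell equal weight left -0.079, and thinning to 2000 UMIs gave 0.024. In macrophage-like cells it stood at 35.7 CPM in WT and 98.2 CPM in TSK (log2 1.46, 1.17 to 1.76), the one member past 2-fold higher there. Resident-like cells had 175 CPM in WT and 356 CPM in TSK, Arg1-low cells 117 in each library, Arg1-high cells 27.8 and 27.3, and monocyte-like cells 10.8 and 9.25 CPM. The last 3 subsets had wide intervals (log2 -0.77 to 0.75 in Arg1-high cells). With resident-like cells left out, macrophage C4b was still higher in TSK, by 0.57 on the log2 scale (107 WT and 110 TSK UMIs). In cells thinned to 2000 UMIs the ratio was 0.84 in Arg1-low cells (14 and 32 UMIs) and 0.0061 in Arg1-high cells (4 and 7 UMIs), with intervals that include 0. C4b had 0 UMIs in neutrophil-like cells of both libraries, which allows up to 28.5 CPM in WT and 4.32 CPM in TSK.

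C3, the protein on which all pathways of complement converge (chr17:57203970-57228136, minus strand), was lower in the TSK library in each lineage where it was well measured. Fibroblast-like cells stood at 3391 CPM in WT and 1313 CPM in TSK, a log2 ratio of -1.37 (-1.42 to -1.32). The median over all genes of these cells was 0.31, and scaled by it the ratio was -1.68 for C3, -0.75 for C4b, -0.78 for Cfb and -0.74 for Serping1. C3 kept its direction under each of 9 alternatives, from -1.75 to -0.34, and the smallest difference came with at most 10000 UMIs per cell, where 327 WT and 1030 TSK UMIs of the 13301 and 5444 were left. The median cell had 22.7 C3 UMIs per 10000 in WT and 6.92 in TSK, and 27 of 180 WT and 90 of 312 TSK cells had none. Thinned to 500 UMIs, 57.8% of WT and 33.3% of TSK fibroblast-like cells had a C3 UMI, against 0.655% and 0% of T or NK cell-like cells (0 of 277 in TSK, with an exact binomial upper bound of 1.32%).

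C3 was concentrated in fibroblast-like cells with UMIs of Clec3b, Pi16 and Cd34, markers of the adventitial type of fibroblast. Cells with at least 3 such UMIs were 122 of 180 in WT and 179 of 312 in TSK, and stood at 4266 and 2128 CPM (log2 -1.004, -1.05 to -0.96). Cells with none stood at 122.6 and 143.1 CPM (0.22, -0.18 to 0.64). The lower C3 of the TSK library thus remained in the cells that made most of it. After thinning to 2000 UMIs, cells with at least 1 UMI of the 3 markers stood at 4466 and 2509 CPM (-0.83), and those with none at 1261 and 355 CPM (-1.83).

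In macrophage-like cells C3 was 405 CPM in WT and 264 CPM in TSK (log2 -0.62, -0.74 to -0.49). It was -0.25 with at most 10000 UMIs per cell and -0.50 with resident-like cells left out. Arg1-high cells stood at 559 and 296 CPM (-0.92) and kept -0.84 in cells thinned to 2000 UMIs. Resident-like cells stood at 355.5 and 155.9 CPM (-1.19), from 69 and 88 UMIs, while after thinning the 2 WT cells had 0 UMIs and the 40 TSK cells 12. Monocyte-like cells (382.4 and 336.1 CPM) and Arg1-low cells (217.3 and 212.7 CPM) had ratios with intervals that included 0. C3 therefore moved opposite to C1q in the same lineage. In neutrophil-like cells C3 was 266 CPM in WT (28 UMIs) and 119.5 CPM in TSK (log2 -1.15, -1.79 to -0.48), with a median over all genes of -0.56 in those cells. That ratio was -0.36 to -0.59 under 5 of the 9 alternatives (upper limits, cells of a second lineage left out, equal weight per cell, scaling and thinning), short of 2-fold. In SO cancer cell-like cells C3 was 66.3 CPM in WT and 2.59 CPM in TSK (195 and 75 UMIs), and the highest 9 of 87 WT cells held 82.6% of the WT UMIs. Markers of these cells differed too, with Krt8 at 98.9 and 7.54 CPM and Krt19 at 105 and 6.53 CPM. Cdkn2a (735 and 644 CPM) and Hmga2 (554 and 498 CPM) differed less. The part of this in the C3 ratio was not tested. Endothelial cell-like cells had 30 UMIs in WT and 1 in TSK, a WT to TSK ratio of 16.7 (log2 TSK over WT -4.06, -9.41 to -1.47), and 26 of the 30 came from 1 cell.

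**Figure D3:**
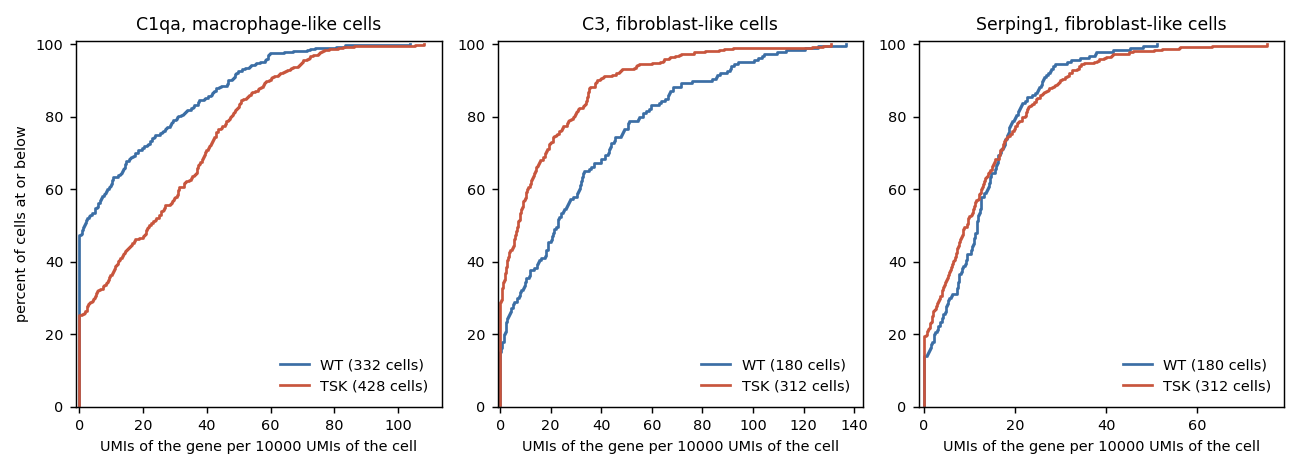
Cumulative share of cells (y axis, percent) at or below a given number of UMIs per 10000 (x axis) for C1qa in macrophage-like cells and for C3 and Serping1 in fibroblast-like cells, WT and TSK, 1 library each. C1qa is shifted to higher values in TSK and C3 to lower values, with medians of 1.62 and 22.0 for C1qa and 22.7 and 6.92 for C3, while the Serping1 curves cross.

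Cfb, the catalytic component of the alternative pathway (chr17:34856374-34862518, minus strand, overlapped by Gm20547, which had 0 UMIs), stood at 316.6 CPM in WT and 228.8 CPM in TSK fibroblast-like cells (log2 -0.47, -0.59 to -0.35). The direction turned with at most 10000 UMIs per cell (1.07), with equal weight for each cell (0.013) and with cells of a second lineage left out (0.11). In macrophage-like cells it stood at 152.8 and 179.7 CPM (0.23, 0.07 to 0.40), close to the median of all genes there. Like C3, Cfb was higher in fibroblast-like cells with at least 3 UMIs of Clec3b, Pi16 and Cd34 (398.6 and 355.8 CPM) than in those with none (24.9 and 49.1 CPM). In endothelial cell-like cells it was 44.0 and 26.4 CPM (-0.74, -1.62 to 0.08).

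Serping1, the inhibitor of C1r and C1s (chr2:84765387-84775444, minus strand), had 10542 UMIs in fibroblast-like cells and 7 in macrophage-like cells. Fibroblast-like cells stood at 1503 CPM in WT and 1121 CPM in TSK (log2 -0.42, -0.48 to -0.37). As for Cfb, the direction was not stable: it was -0.022 with each cell weighted equally, 0.041 in cells thinned to 2000 UMIs and 0.93 with at most 10000 UMIs per cell. Cells with at least 3 UMIs of Clec3b, Pi16 and Cd34 differed little (1735 and 1633 CPM), and cells with none stood at 666.6 and 371.4 CPM (-0.84, -1.04 to -0.65). Endothelial cell-like cells had the next highest level, 154.6 CPM in WT and 45.1 CPM in TSK (-1.78, -2.40 to -1.21). A UMI was found in 43.6% of WT and 17.2% of TSK endothelial cell-like cells, and equal weight per cell left -1.73. The ratio was smaller with no lead over the next marker list required (-0.59) and in cells thinned to 2000 UMIs (-0.75, from 16 and 8 UMIs). Fibroblast-like cells of the TSK library carried more UMIs of the SO cancer cell list (407 CPM against 71.9) and of the keratinocyte list (102 against 16.1). They carried fewer of the endothelial list (131 against 262), and the part of these lists in the fibroblast values was not tested. With depth set equal by thinning to 2000 UMIs, fibroblast ratios were -1.04 for C3, 0.024 for C4b, -0.056 for Cfb and 0.041 for Serping1. Any other part of depth was not tested.

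**Figure D4:**
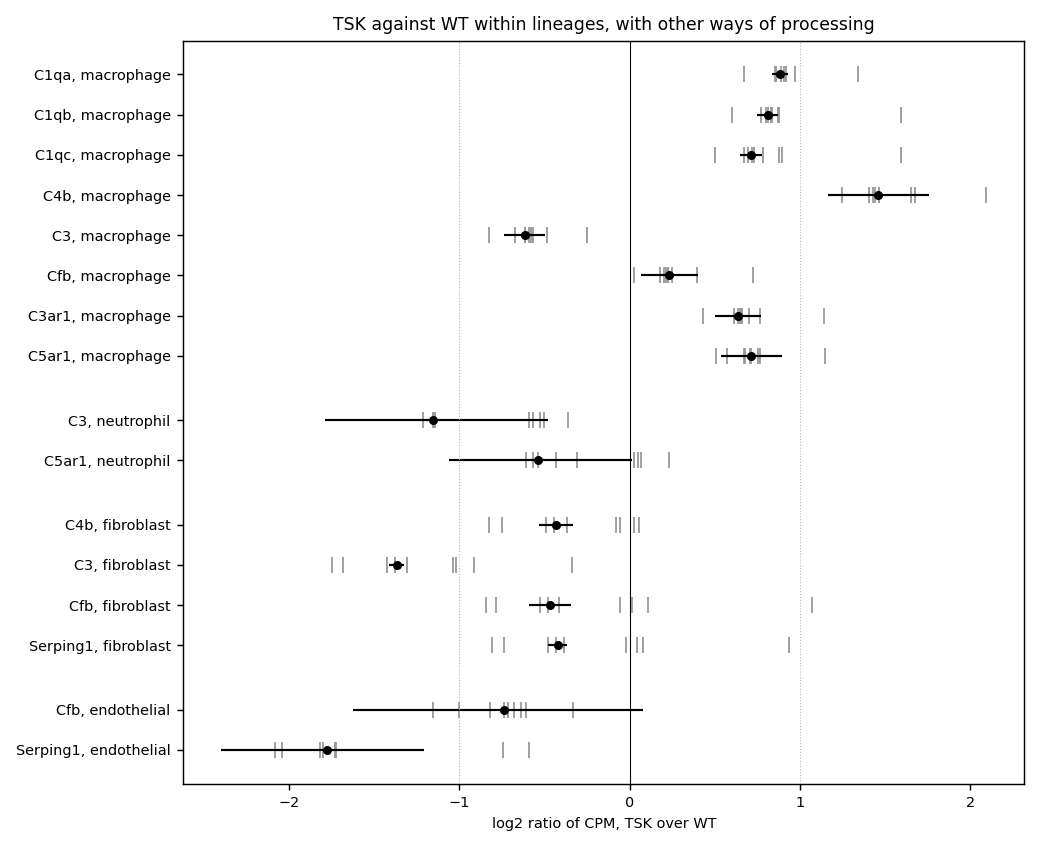
Log2 ratio of CPM, TSK over WT (x axis), for genes with enough UMIs in 4 lineages (y axis), as black points with 95% intervals for counting error; grey ticks are 9 other ways of processing and dotted lines mark 2-fold. The macrophage C1q, C4b and receptor ratios stay above 0 and the C3 ratios below 0 throughout, while the ticks of fibroblast C4b, Cfb and Serping1 and of neutrophil C5ar1 fall on both sides of 0. Ratios of the C1q chains in fibroblast-like cells are not drawn, and those of C1qa and C1qb there also changed sign under some alternatives.

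C3ar1, the receptor of C3a (chr6:122847138-122856161, minus strand), followed C1q: 205 CPM in WT and 319.2 CPM in TSK macrophage-like cells (log2 0.64, 0.50 to 0.77). It was lowest in monocyte-like cells (149.9 and 189.6 CPM) and highest in resident-like cells (370.9 and 419.8 CPM), and its ratio within each of the 4 subsets (0.18 to 0.34) was smaller than over the lineage. In cells thinned to 2000 UMIs the C3ar1 ratio was -0.090 in monocyte-like cells (31 and 15 UMIs), 0.41 in Arg1-high and 0.36 in Arg1-low cells. The intervals of these thinned ratios include 0. C5ar1, the receptor of C5a (chr7:16246743-16259540, minus strand), was found in both myeloid lineages. In macrophage-like cells it stood at 114.3 CPM in WT and 187.6 CPM in TSK (0.71, 0.54 to 0.89). Resident-like cells stood at 139.1 CPM in WT (27 UMIs from 11 cells) and 311.7 CPM in TSK (1.16), and after thinning to 2000 UMIs at 0.26 on the log2 scale, from 1 WT UMI. Arg1-high cells, at 161.3 CPM in WT and 170.5 CPM in TSK, had 0.080 (-0.22 to 0.38), and 0.32 after thinning. Arg1-low cells had 0.33, and 0.54 after thinning. The intervals of these Arg1-high and Arg1-low ratios include 0. Monocyte-like cells had 0.69 (0.32 to 1.04), and -0.10 after thinning (25 and 12 UMIs), with an interval that includes 0. In neutrophil-like cells it stood at 351.6 CPM in WT (37 UMIs) and 241.9 CPM in TSK (-0.54, -1.06 to 0.02), an interval that includes 0. The 2 lineages therefore stood in the same order in both libraries, with neutrophil-like cells above macrophage-like cells. Both receptors were at or below 3.11 CPM in fibroblast-like, endothelial cell-like, T or NK cell-like and SO cancer cell-like cells.

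Past a 2-fold difference, 1 of the 8 members measured in macrophage-like cells was higher in TSK (C4b), against 4.72% of all 8306 genes measured there, and 0 were lower, against 1.85%. Their median log2 ratio was 0.71, against 0.21 for all genes. In fibroblast-like cells, 0 of 7 members were higher, against 12.2% of 9732 genes, and 3 were lower (C3, and C1qa and C1qc at 4.58 to 32.1 CPM), against 3.58%. C3 fell short of 2-fold with at most 10000 UMIs per cell (-0.34) and with cells of a second lineage left out (-0.91). C1qa turned to 1.81 and 1.32 under the same settings. In TSK the C1q counts lie near the level of free RNA: C1qa stood at 9.89 CPM in fibroblast-like and 16.4 CPM in T or NK cell-like cells. In WT they stood above it, with C1qa at 32.1 CPM in fibroblast-like and 3.21 CPM in T or NK cell-like cells. C1qc stood at 11.5 and 4.96 CPM there, and 1 WT fibroblast-like cell held 49 of the 126 C1qa UMIs. The median of the 7 was -0.87, the value of C1qb, against 0.31 for all genes, while C3, Cfb, C4b and Serping1 stood at -1.37, -0.47, -0.43 and -0.42. In neutrophil-like cells 0 of 2 were higher (8.74% of genes) and 1 lower (C3; 29.7%), a call lost under 5 alternatives, in endothelial cell-like cells 0 of 2 higher (12.7%) and 1 lower (Serping1; 4.97%), a call lost under 2, and in SO cancer cell-like cells 1 of 3 higher (C1qa; 4.55%) and 1 lower (C3; 8.00%). C1qa in those cells was 3.40 CPM in WT (10 UMIs) and 9.06 CPM in TSK, where T or NK cell-like cells had 3.21 and 16.4 CPM, so that this count is read as background. For C3 in those cells no alternative was run. The neutrophil count is near its background.

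Of 45 other complement genes, 19 had at least 200 UMIs in all and 9 had under 10, among them the mannose-binding lectins Mbl1 and Mbl2 and the terminal components C8a and C8b. In macrophage-like cells 12 were measured and 5 were past 2-fold higher in TSK, with 0 lower and a median of 0.50. Over all genes measured there, 4.72% were higher and 1.85% lower, with a median of 0.21. Fcna, a lectin pathway ficolin, stood at 12.4 CPM in WT and 66.3 CPM in TSK (log2 2.42), and the terminal component C6 at 10.7 and 46.4 CPM (2.12). With at most 10000 UMIs per cell these ratios were 4.20 (4 and 120 UMIs) and 3.09 (7 and 97 UMIs), and that of C1qbp was 2.10. The scavenger receptor Colec12 (3.04 and 12.3 CPM, 2.02) and C1qbp (26.9 and 64.7 CPM, 1.27), which also encodes a mitochondrial protein and had 77.4% of its UMIs in SO cancer cell-like cells, were also among them. Colec12 had only 3.33% of its UMIs in macrophage-like cells (12 and 39 UMIs), against 59.2% in fibroblast-like and 26.35% in SO cancer cell-like cells. Its macrophage ratio was 1.42 with at most 10000 UMIs per cell (8 and 35 UMIs). Properdin (Cfp), which stabilises the alternative pathway enzyme, had 81.8% of its UMIs in macrophage-like cells and stood at 269.9 and 330.3 CPM (0.29). The complement receptor 3 subunits Itgam (337.4 and 336.6 CPM) and Itgb2 (299.1 and 289.5 CPM) were level in macrophage-like cells.

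In fibroblast-like cells 14 of the other genes were measured, with 2 past 2-fold higher, 3 lower and a median of -0.68. Over all genes measured there, 12.2% were higher and 3.58% lower, with a median of 0.31. The count of genes higher was near that share. The C1 proteases C1s1 (606.2 CPM in WT and 258.3 CPM in TSK, log2 -1.23) and C1ra (291.9 and 150.7 CPM, -0.95) were lower in TSK, as were C2 (108.6 and 57.6 CPM, -0.91) and Csmd1 (276.3 and 151.4 CPM, -0.87). C1s1 was -0.52 with at most 10000 UMIs per cell (85 and 236 UMIs), short of 2-fold. Masp1 (41.0 and 12.1 CPM, -1.77) turned to 0.23 with at most 10000 UMIs per cell, from 3 and 14 UMIs, and Itgam (20.1 and 5.55 CPM, -1.86) is a leukocyte gene at low level there. The genes past 2-fold higher were C1qbp (1.94) and the regulator clusterin (Clu, 20.7 and 55.0 CPM, 1.41), which had 78.6% of its UMIs in SO cancer cell-like cells and a fibroblast ratio of 0.85 with at most 10000 UMIs per cell (5 and 36 UMIs). Cd55, a membrane regulator, had 89.2% of its UMIs in fibroblast-like cells and stood at 111.4 and 84.9 CPM (-0.39). Of the genes measured elsewhere, Itgb2 was past 2-fold lower in neutrophil-like cells (-1.26, and -0.74 with at most 10000 UMIs per cell), C1qbp higher in endothelial cell-like cells (1.16, and 2.35 from 2 and 12 UMIs), and C1ra (-1.92) and Itgax (-3.14) lower in SO cancer cell-like cells. The regulators Cd46 (48.3% of UMIs in SO cancer cell-like cells) and Cr1l (34.6%) were spread over lineages, as was Cd59a, with 46.4% in fibroblast-like cells.

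Across the 12 sums of 6 lineages in 2 libraries, the genes most like each member (Pearson r of log2(CPM + 1), among 11905 genes) were as follows, as a description of sums that share libraries and lineages. C1qa was closest to C1qc (r = 0.99), Cacna1d (0.98) and the lipid receptor Trem2 (0.97), C1qb to C3ar1 (0.97), Gm10134 (0.96) and Apoc2 (0.96), and C1qc to C1qa, Cacna1d (0.98) and C3ar1 (0.97). C3ar1 itself was closest to Cbr2, Kcnk13 and Ctsa (0.98 each), with C1qc (0.97), C1qb (0.97) and C1qa (0.96) below these. C5ar1 was closest to Klra2 (0.99), 4930430E12Rik (0.98) and Slc11a1 (0.98). Of the fibroblast genes, C3 was closest to Esr1 (0.96), Gsn (0.95) and Dram1 (0.92), C4b to Ang (0.99), Plxdc2 (0.95) and Igf1 (0.94), Cfb to Igf1 (0.98), Ecm1 (0.97) and Rnase4 (0.96), and Serping1 to the collagen gene Col5a2 (0.98), Meg3 (0.98) and Slit3 (0.98). The 4 fibroblast genes did not share a single nearest gene, apart from Igf1, which C4b and Cfb had in common.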

How the data were processed

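Tumors were pooled by genotype before dissociation, and 1 library per genotype was made (10x Genomics 3′ v2 per the labels). The authors deposited raw UMI counts per gene and barcode, whole numbers without normalization, as made by Cell Ranger (7.1.0 in the file headers, 7.1.1 in the submitters' processing notes) on mm10; the annotation and the handling of intronic reads are not given in the sources used here. Libraries held 21225411 (WT) and 48296765 (TSK) UMIs, and precision is set by the UMIs behind each value. Gene positions are from GENCODE M21, which holds 99.6% of the gene IDs (32158).

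The study's upper limits of 10000 UMIs and genes were not applied, except as an alternative. A cell took the lineage whose marker list had the most UMIs, with at least 3 UMIs from at least 2 markers and at least 2 times those of the next list. No doublet caller was run; an alternative left cells with a second lineage out of every lineage, while their UMIs stayed in the total. UMI sums, exact Poisson, binomial and conditional 95% intervals and log2 ratios were computed with Python 3.11.15, numpy 2.4.6, scipy 1.17.1 and pandas 2.3.3, and figures were drawn with matplotlib 3.10.9. Genes were measured in a lineage where they had 50 or more UMIs in all and no fewer than 10 per library. On simulated data, intervals covered the known ratio for 96.0% of 8306 genes in macrophage-like and 95.7% of 9732 genes in fibroblast-like sums. The simulated sums were Poisson draws, the model on which the intervals rest. This checks the calculation only, because UMIs gathered in a few cells were not simulated.

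Named were all 9 members, and other complement genes past 2-fold in a lineage or with at least 200 UMIs in all, of which 1 is not reported here. For likeness, the 3 genes with the highest correlation over sums of at least 20 cells were named, among genes with at least 200 UMIs. Members, gene lists and subset rules were chosen with earlier results of these data known. Other settings tried were the study's upper limits, 20% mitochondrial UMIs, shared barcodes kept, looser and stricter lineage rules, cells of a second lineage left out, equal weight per cell, scaling by the median gene ratio, thinning to 2000 UMIs and a 1.5-fold limit; 3 more, which left out subsets of cells, and the subsets in thinned cells were chosen after seeing the data.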

Additional observations from a re-analysis of the deposited data

Results flagged for a closer look

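Barcodes listed in both libraries were left out of the report (251 in WT and 255 in TSK passed the other filters), and they held UMIs of the members above the level that a count of 0 allows. In the WT library these barcodes stood at 28.7 CPM for C1qa, 20.3 for C1qb, 15.1 for C1qc, 11.0 for C4b, 86.6 for C3, 14.8 for Cfb, 136.2 for Serping1, 3.54 for C3ar1 and 1.61 for C5ar1. In the TSK library they stood at 13.2 CPM for C1qa, 15.8 for C1qb, 18.4 for C1qc, 13.2 for C3 and 10.5 for Serping1. These TSK values rest on 4 to 7 UMIs each. T or NK cell-like cells, taken as the level of free RNA, stood at 16.4, 14.2, 10.95, 9.86 and 4.38 CPM there. The intervals overlapped for each of these genes, so the TSK values are not set apart from free RNA. In WT, T or NK cell-like cells stood lower, at 3.21 CPM for C1qa, 7.58 for C3 and 1.17 for Serping1.

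For 5 genes the ratio of TSK to WT went opposite ways in macrophage-like and fibroblast-like cells; with 1 library per genotype the difference was not tested. The log2 ratio was 1.46 for C4b in macrophage-like cells against -0.43 in fibroblast-like cells, and 0.23 against -0.47 for Cfb, of which the fibroblast values changed sign under some alternatives. For the C1q chains it was 0.88 against -1.70 (C1qa), 0.81 against -0.87 (C1qb) and 0.71 against -1.32 (C1qc), where the fibroblast-like cells had 64 to 167 UMIs per gene over both libraries. In fibroblast-like cells C1qa also changed sign under 2 alternatives and C1qb under 3. The TSK level of C1qa there, 9.89 CPM, was below the 16.4 CPM of T or NK cell-like cells, which gives the level of free RNA. The WT level, 32.1 CPM, was above the 3.21 CPM of WT T or NK cell-like cells. Of the 126 C1qa UMIs of WT fibroblast-like cells, 49 came from 1 cell.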

How the results depend on the processing

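No paired analysis was possible because each genotype has 1 library. Of 81 ratios of members in their leading lineage under 9 other settings, 39 stayed within the counting interval, 34 moved in the same direction and 8 changed sign, all of them fibroblast C4b, Cfb or Serping1; in other lineages 73 of 102 stayed, 19 moved and 10 changed sign. The causes were not tested. With at most 10000 UMIs and genes per cell (920 WT and 1701 TSK cells), log2 ratios were 1.34 for C1qa, 1.60 for C1qb, 1.59 for C1qc, 1.14 for C3ar1 and 1.15 for C5ar1 in macrophage-like cells, -0.34 for C3, 0.054 for C4b, 1.07 for Cfb, 0.93 for Serping1, 1.81 for C1qa, 0.81 for C1qb and 0.23 for Masp1 in fibroblast-like cells, and 0.067 for C5ar1 in neutrophil-like cells. With 20% mitochondrial UMIs fibroblast C3 was -1.42, and with shared barcodes kept -1.31. With no lead required, fibroblast C3 was -1.75, C4b -0.82, Cfb -0.85 and Serping1 -0.81. With cells of a second lineage left out, macrophage C1qa was 0.97 and C1qc 0.78, fibroblast C3 -0.91, C4b -0.057, Cfb 0.11, Serping1 0.081, C1qa 1.32 and C1qb 2.06, and neutrophil C5ar1 0.047. With equal weight per cell, macrophage C1qb and C1qc were 0.88 and 0.88, fibroblast C3 -1.02, C4b -0.079, Cfb 0.013, Serping1 -0.022 and C1qb 0.20, and neutrophil C5ar1 0.23. Scaled by the median gene ratio, macrophage C1qa was 0.67, C1qb 0.60, C1qc 0.50, C3ar1 0.43 and C5ar1 0.51, fibroblast C3 -1.68, C4b -0.75, Cfb -0.78 and Serping1 -0.74, and neutrophil C5ar1 0.025. Thinned to 2000 UMIs, macrophage C1qb was 0.87 and C1qc 0.89, fibroblast C3 -1.04, C4b 0.024, Cfb -0.056 and Serping1 0.041. Chosen after seeing the data, leaving out resident-like cells gave 0.82 for C1qa and 0.51 for C5ar1, and leaving out fibroblast-like cells with under 3 UMIs of Clec3b, Pi16 and Cd34 gave -1.004 for C3, -0.082 for C4b, -0.16 for Cfb and -0.087 for Serping1. At 1.5-fold, 6 of 8 members were higher and 1 lower in macrophage-like cells, against 1579 and 455 of 8306 genes. In fibroblast-like cells 0 of 7 were higher and 4 lower, against 3095 and 782 of 9732 genes.

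Shares of UMIs from the leading lineage moved too. With the upper limits they were 95.6% for C1qa, 94.3% for C1qb, 93.6% for C1qc, 66.6% for C4b, 55.0% for C3, 31.1% for Cfb, 91.0% for Serping1 and 63.0% for C5ar1. With shared barcodes kept they were 92.0% for C1qa, 84.6% for C3 and 91.9% for Serping1. With no lead required they were 94.9%, 94.6% and 94.6% for C1qa, C1qb and C1qc, 95.2% for Serping1, 94.5% for C3ar1 and 78.7% for C5ar1. With at least 6 UMIs from at least 3 markers they were 91.9%, 91.1% and 91.4% for the C1q chains and 90.8% for C3ar1. With cells of a second lineage left out they were 77.7%, 78.0% and 76.3% for the C1q chains, 60.4% for C4b, 58.6% for C3, 40.8% for Cfb, 57.7% for Serping1, 77.4% for C3ar1 and 64.6% for C5ar1. Of the 6 lineages compared, the neutrophil-like cells of WT had the fewest UMIs, 105248.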
